A study of Mus musculus with 27 samples.

Results

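Cathepsins are the proteases that digest protein inside lysosomes, and 9 of their genes, Ctsa, Ctsb, Ctsc, Ctsd, Ctsh, Ctsk, Ctsl, Ctss and Ctsz, are followed here by name among the 9996 genes of the deposited table. All 9 were in the table. They were followed over 27 RNA-seq libraries of macrophages and neutrophils that were FACS-sorted from mammary tumours of K14cre;Cdh1F/F;Trp53F/F mice. In this model, which all groups share, Cre under the keratin 14 promoter deletes the E-cadherin and p53 genes in epithelial cells. Mice had received cisplatin with an antibody against CSF-1R (called the combination here), anti-CSF-1R without cisplatin, cisplatin with a control antibody, or the control antibody without cisplatin. Macrophages gave 2 combination, 2 anti-CSF-1R, 4 cisplatin and 4 control libraries, and neutrophils gave 4 combination, 4 anti-CSF-1R, 3 cisplatin and 4 control libraries. CSF-1R receives the signals CSF-1 and IL-34, on which many macrophages depend, and cisplatin is a drug that crosslinks DNA. Mice given cisplatin had 2 injections and were killed 1 day after the last one, whereas the others were killed at a tumour size of 100 mm2, so that an effect of cisplatin and an effect of this endpoint cannot be told apart. Antibody clones, doses and ages are not given in the sources used here.

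Cathepsins are made as inactive precursors, carried to the lysosome by mannose-6-phosphate receptors and related sorting receptors, and activated there at low pH, which the vacuolar proton pump maintains. Most are cysteine proteases, held in check by cystatins and stefins, whereas Ctsd encodes an aspartic protease and Ctsa a serine carboxypeptidase. Macrophages are rich in them and use them to degrade engulfed material, process antigen and, when they are secreted, cleave matrix. Many lysosomal genes carry the E-box CACGTG, often inside the longer element that the transcription factor TFEB binds.

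RefSeq promoter windows (GRCm38.p6, 250 bases before to 50 after a gene's start) were available for 7 of the 9 genes, 8 windows in all. There was none for Ctsb and Ctsh. CACGTG, which reads the same on both strands, occurred in 3 of these 8 windows, those of Ctsd and Ctsl and the second of the 2 windows of Ctsa, against 7.15% of all 32851 windows and 10.3% of the 9752 windows of genes in the table. The windows of Ctsc, Ctsk, Ctss and Ctsz held none. The longer TCACGTGA, which contains CACGTG, occurred in the windows of Ctsd and Ctsa and in 0.974% of all windows, and in 195 of the 9752 windows of genes in the table. The other motifs scanned, GGAAGT and TATAAA, occurred in 4 and 1 of the 8 windows, against 29.9% and 7.17% of the windows of genes in the table. Ctsd and Ctsl had the largest log2 fold changes of the members in anti-CSF-1R over control macrophages, whereas that of Ctsa was 0.34 and did not pass. Ctsb, which also passed, had no window, and a link between the matches and these changes was not tested. The 30 bases around each CACGTG match are shown, 5′ to 3′ on the gene's strand, with CACGTG in capitals.
Ctsd, chr7:142388048-142388077, minus strand: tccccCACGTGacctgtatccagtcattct
Ctsd, chr7:142387908-142387937, minus strand: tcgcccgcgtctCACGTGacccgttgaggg
Ctsl, chr13:64370739-64370768, minus strand: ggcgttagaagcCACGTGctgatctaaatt
Ctsa, chr2:164833757-164833786, plus strand: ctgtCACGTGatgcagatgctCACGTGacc
By GENCODE vM21, the first Ctsd match lay 29 bases upstream of the gene, the second in an exonic untranslated region, the Ctsl match in an intron, and both Ctsa matches in an exonic untranslated region. A match says only that these letters are present.

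Values are the authors' normalised read counts, that is, read counts divided by a size factor per library. Many values below 1000 had lost their decimal point in the deposited table, and the place was recovered as described under the processing. For 7 members, all but Ctsh and Ctsk, a value was available in every library, and 180 of their 189 values allowed only 1 place. Ctsh was left out in 3 of 12 macrophage and 1 of 15 neutrophil libraries, and Ctsk in 5 of 12 and 10 of 15. Decoded reads over the table came to 1298206 to 7497043 per macrophage library and 998796 to 3283474 per neutrophil library. The sort was checked with marker genes: the 12 macrophage markers summed to 17947 to 36514 normalised reads in macrophage libraries, against 2676 to 5806 in neutrophil libraries, while the 10 neutrophil markers in the table summed to 192 to 1520 in macrophages, against 21211 to 99728 in neutrophils. None of the 27 libraries went against its cell type label by these sums.

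Among the members, Ctss had the highest level per kilobase of transcript in all 4 macrophage groups. It encodes an endopeptidase that cleaves the invariant chain of MHC class II, and it averaged 12126 normalised reads per kb in combination, 10129 in anti-CSF-1R, 5265 in cisplatin and 5054 in control macrophages. Ctsd and Ctsb came next in the control macrophages, with 1324 reads per kb for Ctsd and 1494 for Ctsb, and their libraries overlapped. Ctsl held the seventh place in cisplatin macrophages, at 346 reads per kb, and the third in combination macrophages, at 2765. In neutrophils Ctsd and Ctss took the first 2 places in all 4 groups, Ctsd at 2970.5 reads per kb in combination, 2363 in anti-CSF-1R, 2120 in cisplatin and 1877 in control neutrophils. All levels per kb use the length of 1 coding transcript per gene.

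**Figure D1:**
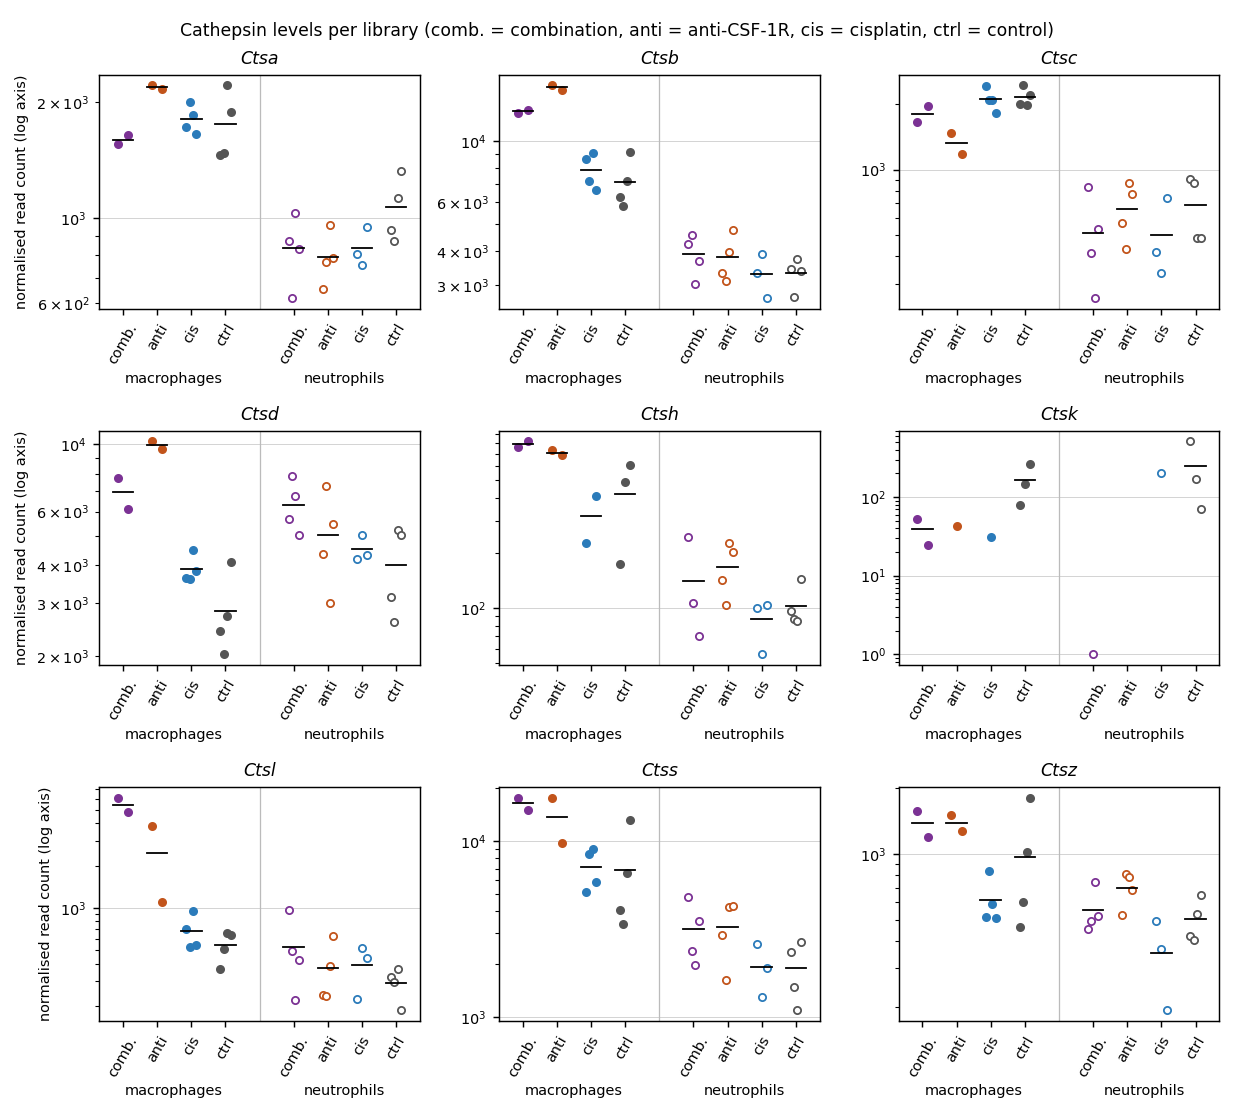
Normalised read counts (log axis) of each of the 9 cathepsin genes in every library with a decoded value, by treatment, with macrophages left (filled) and neutrophils right (open); points are libraries and lines are means of groups with 2 or more. In macrophages the combination libraries lie above all cisplatin libraries shown for Ctsb, Ctsd, Ctsh, Ctsl, Ctss and Ctsz, as for 17.6% of all genes tested. They lie below them for Ctsa, as for 19.2%. Ctsh has a value in 2 of 4 cisplatin macrophage libraries, and Ctsk has few values.

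Anti-CSF-1R treatment was accompanied by higher levels of 3 cathepsins in macrophages. Ctsd was 3.66-fold higher, Ctsl 3.89-fold higher and Ctsb 2.24-fold higher in anti-CSF-1R macrophages than in control macrophages, on the log2(value + 1) scale. The 3 were among 9 members tested, against a background of 149 of 9084 genes passing upward (1.64%). In all, 324 genes passed in either direction. None of the 9 passed downward in this fit. The median log2 fold change of the members was 0.93, against 0.03 over all genes tested.

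Ctsd, at chr7:142375911-142388038 on the minus strand of GRCm38, encodes the lysosomal aspartic endopeptidase. Its normalised read counts were 10237 and 9669 in the anti-CSF-1R macrophage libraries, against 2429, 2031, 2706 and 4094 in the control libraries. Every anti-CSF-1R library lay above every control library, by more than the spread within either group. The log2 fold change was 1.87 ± 0.28 (SE, adjusted p = 0.00335, limma). The call was lost without anti-CSF-1R replicate 2, where the log2 fold change was 1.91. In GENCODE vM21 the gene overlaps Gm49369 on the same strand, so that reads of both cannot be told apart.

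Ctsl, at chr13:64359337-64370890 on the minus strand, encodes a cysteine endopeptidase. Its counts were 3862 and 1093 in the anti-CSF-1R macrophages, against 366, 509, 656 and 635 in the control macrophages. The groups did not overlap, but the 2 anti-CSF-1R libraries stood far apart, and the mean of 2478 ± 1958 (SD, n = 2) has to be read with that. The log2 fold change was 1.96 ± 0.41 (SE, adjusted p = 0.0208). Without anti-CSF-1R replicate 1 it was 1.05 (adjusted p = 0.121), and without control replicate 1 it was 1.78 (adjusted p = 0.0574). The call was also lost under quantile normalisation (1.72, adjusted p = 0.0559) and in a fit of the 2 groups alone (adjusted p = 0.0675). An antisense gene, Gm47123, and a pseudogene, Gm49230, overlap Ctsl.

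Ctsb, at chr14:63122462-63145923 on the plus strand, encodes a cysteine protease that acts both as an endopeptidase and as a dipeptidyl carboxypeptidase. It had 15919 and 15344 normalised reads in the anti-CSF-1R libraries, against 6279, 5817, 7138 and 9108 in the control libraries. The 2 groups were separated by a gap wider than the spread among the control libraries. The log2 fold change was 1.16 ± 0.27 (SE, adjusted p = 0.0342). This call was the least firm: over leaving out each library in turn the adjusted p ran from 0.0116 to 0.225 and 1 of 6 fits passed, and under quantile normalisation the log2 fold change was 0.13 (adjusted p = 0.835). It was also lost in a fit of the 2 groups alone (adjusted p = 0.127), with no filter on low values (0.0792), with array weights (0.0822) and with places decoded without the groups (0.0503). Ctsb overlaps Fdft1, a gene on the opposite strand.

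The other 6 members did not pass the test in anti-CSF-1R over control macrophages. Ctss had 17716 and 9733 reads in the anti-CSF-1R libraries, against 4095, 3371, 6627 and 13296 in the control libraries, where replicate 4 lay between the 2 anti-CSF-1R libraries. The log2 fold change of Ctss was 1.15 ± 0.47 (SE, adjusted p = 0.172), and 1.54 (adjusted p = 0.0267) without control replicate 4. Ctsh, an aminopeptidase, had 730 and 688 reads in the anti-CSF-1R libraries, against 175, 488 and 606 in the 3 control libraries with a value (adjusted p = 0.261). Ctsz, a carboxypeptidase also called cathepsin X, had 1501 and 1266 reads, against 461, 599, 1016 and 1808 in the control libraries (adjusted p = 0.351). Control replicate 4 was thus the highest control library for Ctsb, Ctsd, Ctsh, Ctss and Ctsz. Ctsa, the serine carboxypeptidase that protects neuraminidase and beta-galactosidase in the lysosome, had 2216 and 2172 reads, against 1462, 1476, 2215 and 1889.8 (adjusted p = 0.413). Ctsc, the dipeptidyl peptidase that activates granule serine proteases, ran the other way, with 1474 and 1173 reads in the anti-CSF-1R libraries, against 1994, 2436, 1976 and 2199 in the control libraries. Its log2 fold change of -0.70 ± 0.22 (SE) did not pass (adjusted p = 0.0857), and the groups did not overlap. Under quantile normalisation it was -1.09 and passed (adjusted p = 0.0333).

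Marker genes of other cell types also differed between these macrophage libraries. Sums take the most probable place for every value, also where its probability was under 0.95, and count a gene listed at 1 as 1. The 12 macrophage markers summed to 30482 to 36514 in the anti-CSF-1R libraries, against 17947 to 30985 in the control libraries, with none listed at 1. The 9 mast cell and basophil markers in the table summed to 522 and 9586 in the anti-CSF-1R libraries, the higher value in replicate 2, against 15.2 to 77.1 in the control libraries, where 2 to 6 of them were listed at 1. The 10 neutrophil markers summed to 1035 to 1128, against 251 to 1520, and the 6 monocyte markers to 997 to 1271, against 353 to 910 in the control libraries. Eosinophil markers, 4 in the table, summed to 66.2 to 105, against 5.75 to 19.9. In a bulk library, fewer cells of a type and less RNA per cell cannot be told apart, and the part of these cells in the cathepsin differences was not tested. T and NK cell markers were not analysed here.

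In the presence of cisplatin, 1 member passed in the comparison of combination with cisplatin macrophages, against 153 of 9072 genes passing upward (1.69%) and 331 in either direction. Ctsl had 6112 and 4787 reads in the combination libraries, against 709, 524, 952 and 542 in the cisplatin libraries. Every combination library was several times above every cisplatin library. The value of 709, in cisplatin replicate 1, could also be read as 70.9, and without that library the log2 fold change was 3.06 (adjusted p = 0.00895). The log2 fold change was 3.03 ± 0.41 (SE, adjusted p = 0.0027), which is 8.16-fold, and the call held in all 6 fits with 1 library left out (adjusted p from 0.00342 to 0.0478) and in all 12 other settings. The median log2 fold change of the 9 members was 0.84, against -0.01 over all genes tested.

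Ctsd, Ctsb, Ctss, Ctsz and Ctsh did not pass in combination over cisplatin macrophages. With Ctsl, 6 of 9 members lay wholly above the cisplatin libraries, against 17.6% of all genes tested, and 1, Ctsa, lay wholly below them, against 19.2%. Ctss had 17755 and 15106 reads in the combination libraries, against 5144, 8479, 9065 and 5849.7 in the cisplatin libraries (log2 fold change 1.24 ± 0.47, adjusted p = 0.151). Ctsz had 1568 and 1189.5, against 517, 833, 588 and 511 (1.19 ± 0.42, adjusted p = 0.124). Ctsh had 758 and 819, against 227 and 411 in the 2 cisplatin libraries with a value (1.37 ± 0.49, adjusted p = 0.145). All errors here are SE. These 3 and Ctsl passed in a fit of the 2 groups alone, and these 3 with Ctsl, Ctsb and Ctsd in a fit with array weights. Ctsd had 7778 and 6146 reads, against 3617, 3586, 4484 and 3829.8 (adjusted p = 0.111). Ctsb had 12655 and 12927, against 8569.6, 7138, 9006 and 6629 (adjusted p = 0.154). Ctsa and Ctsc gave small negative log2 fold changes of -0.17 and -0.22, with adjusted p of 0.721 and 0.621. Other markers moved here as well. Neutrophil markers summed to 1348 to 1489 in the combination libraries, against 192 to 371 in the cisplatin libraries, and monocyte markers to 961 to 2505, against 533 to 1035. The 9 mast cell and basophil markers summed to 24.1 to 25.3, against 9.08 to 13.6. Of these, 4 to 5 were listed at 1 in the combination libraries and 6 to 8 in the cisplatin libraries. The 4 eosinophil markers summed to 182 to 215 in the combination libraries, against 5.66 to 8.94 in the cisplatin libraries. Of the 3 tested, 2 passed as higher (median log2 fold change 4.82), against 1.69% of all genes. Macrophage markers summed to 24209 to 24547 in the combination libraries, against 22438 to 30147 in the cisplatin libraries. Of these 12 genes 4, Cx3cr1, C1qc, Csf1r and C1qb, were lower at the threshold. Of all 9072 genes, 331 passed in either direction, 153 of them upward. The part of these cell types in the result was not tested.

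**Figure D2:**
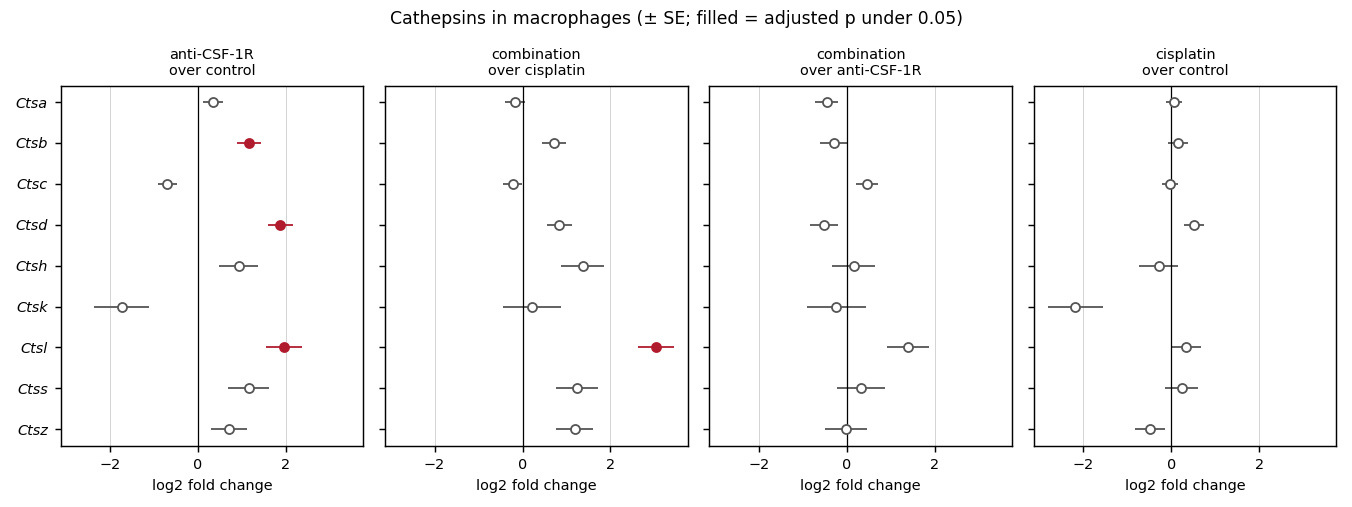
Log2 fold change (x axis) with its SE for each cathepsin (y axis) in 4 comparisons of macrophage groups. Filled points passed an adjusted p of 0.05, and Ctsb, Ctsd and Ctsl passed in anti-CSF-1R over control, Ctsl alone of the 9 in combination over cisplatin, and none in the other 2 comparisons.

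Combination over anti-CSF-1R macrophages, a comparison of 2 libraries with 2, gave no passing member, and none of 8962 genes passed at all (0%), with 837 genes at an unadjusted p under 0.05 and 0 to 99 passing under the other settings. Ctsl was higher in both combination libraries, with a log2 fold change of 1.40 ± 0.48 (SE, adjusted p = 0.397). Ctsd was lower, at -0.52 ± 0.33 (adjusted p = 0.657). Cisplatin over control macrophages gave no passing member either, with 39 of 9206 genes passing (0.424%). An unadjusted p under 0.05 was reached by 2 members, Ctsd and Ctsk, against 10.2% of all genes. Ctsk had a value in only 1 cisplatin library. Ctsd averaged 3879 ± 417 reads in cisplatin and 2815 ± 897 reads in control macrophages (SD, n = 4 each), and the groups overlapped. The median over the members was 0.06 on the log2 scale. Whether anti-CSF-1R had another effect with cisplatin than without was tested as an interaction. None of the 9 members passed, and 3 of 8962 genes did (0.0335%). The estimates were -1.03 ± 0.40 for Ctsd (SE, adjusted p = 0.509) and 1.07 ± 0.58 for Ctsl (adjusted p = 0.626). The calls for Ctsd and Ctsb without cisplatin were therefore not shown to differ from their results with cisplatin.

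Summed over the decoded members, the cathepsins took 3.71% and 2.94% of all normalised reads in the combination macrophages and 3.58% and 2.61% in the anti-CSF-1R macrophages. In cisplatin macrophages the share was 1.46% to 1.76%, and in control macrophages 1.26% to 2.33%, with control replicate 4 at the top. Neutrophils gave 0.483% to 0.857% in the combination, 0.652% to 0.728% in anti-CSF-1R, 0.428% to 0.643% in cisplatin and 0.472% to 0.709% in control libraries. All 12 macrophage libraries were above all 15 neutrophil libraries.

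**Figure D3:**
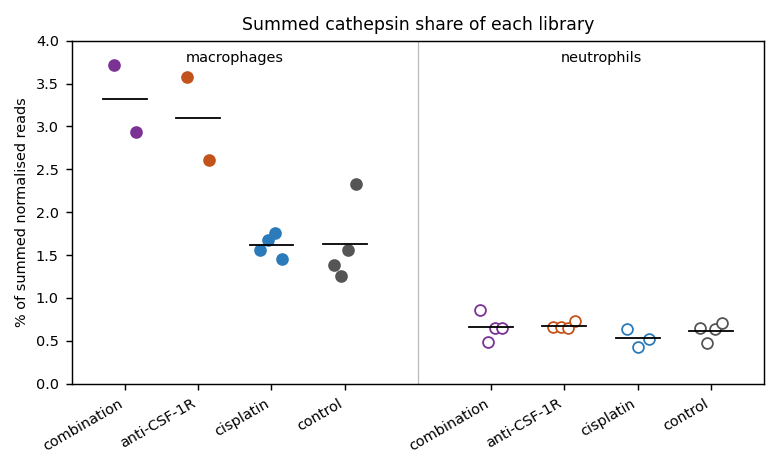
Share of all normalised reads (percent, y axis) taken by the 9 cathepsin genes in each library, by treatment, for macrophages (filled) and neutrophils (open); lines are group means. The 4 macrophage libraries with anti-CSF-1R, alone or combined, lie between 2.61% and 3.71%, above the other 8, which end at 2.33%.

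In neutrophils no cathepsin passed in any of the 4 treatment comparisons. Few genes did: 14 of 9125 in anti-CSF-1R over control (0.153%), 8 of 9118 in cisplatin over control (0.0877%), 8 of 9116 in combination over cisplatin (0.0878%) and 4 of 9123 in combination over anti-CSF-1R (0.0438%). In anti-CSF-1R over control, 1 of 8 tested members was at an unadjusted p under 0.05, against 9.59% of all genes. This was Ctss, with 2921, 1628, 4244 and 4292 reads in anti-CSF-1R neutrophils, against 2340.1, 1486, 1092 and 2659 in control neutrophils. Its log2 fold change was 0.78 with an SE of 0.37 and an adjusted p of 0.517. The groups overlapped. In combination over cisplatin it was 2 of 9 members, Ctsz and Ctsk, against 9.44% of all genes. Ctsk had a value in only 1 library of each group. Ctsz averaged 553 ± 132 reads in combination neutrophils (SD, n = 4) and 352 ± 152 reads in cisplatin neutrophils (SD, n = 3), with overlap (adjusted p = 0.433). In the other 2 comparisons 0 members reached an unadjusted p under 0.05. Ctsl spread widely among combination neutrophils, at 960, 490, 219 and 424 reads, against 224, 518 and 438 in cisplatin neutrophils.

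The difference between the cell types in their response to anti-CSF-1R was tested directly. Without cisplatin, the estimate for macrophages minus neutrophils was 1.55 ± 0.44 for Ctsd (SE, adjusted p = 0.149), 1.69 ± 0.63 for Ctsl (adjusted p = 0.353) and 0.98 ± 0.36 for Ctsb (adjusted p = 0.337). None of 8 members passed, against 19 of 9758 genes (0.195%). An unadjusted p under 0.05 was found for 4 members, against 9.37% of all genes. With cisplatin, Ctsl had the estimate 2.73 ± 0.65 (adjusted p = 0.0722), and none of 9 members passed, against 6 of 9735 genes (0.0616%). Here 2 members, Ctsl and Ctsk, had an unadjusted p under 0.05, against 10.8% of all genes. Ctsk had 1 value each in cisplatin macrophages, cisplatin neutrophils and combination neutrophils, the last a listing at 1. A larger response of macrophages than of neutrophils was therefore not shown for any cathepsin at the threshold.

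Between the cell types, most cathepsins were higher in macrophages under every treatment. In combination samples 8 of 9 members were higher in macrophages than in neutrophils, against 22.9% of 9743 genes (7 of 8 without Ctsk, whose call rests on 1 neutrophil library listed at 1), in anti-CSF-1R samples 8 of 8, against 21.4% of 9758, in cisplatin samples 6 of 9, against 29.4% of 9874 (1 member, Ctsk, was lower, against 27.6%), and in control samples 6 of 9, against 26.7% of 9882. The median over all genes was itself 0.10 to 0.13 above 0 in these comparisons. Ctsa, Ctsb, Ctsc, Ctsh, Ctss and Ctsz passed as higher in all 4, that of Ctsh in cisplatin samples not without macrophage replicate 3 (adjusted p = 0.0526). These comparisons share no libraries with each other, but 1 fit gave them a common spread per gene, so their calls are not independent.

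Ctsc was lower in neutrophils than in macrophages in each treatment. It averaged 1800 ± 214 reads in combination macrophages (SD, n = 2) and 511 ± 244 in combination neutrophils (SD, n = 4), and 2151 ± 215 in control macrophages and 687 ± 231 in control neutrophils (SD, n = 4 each). The log2 fold change over the 4 treatments ran from 1.04 in anti-CSF-1R samples (adjusted p = 0.0228; 0.164 without macrophage replicate 1, 0.0561 without macrophage replicate 2 and 0.0742 without neutrophil replicate 2) to 2.14 in cisplatin samples (adjusted p = 4.5e-06). Ctsb was 1.74 ± 0.28 higher in combination, 2.07 ± 0.28 in anti-CSF-1R, 1.25 ± 0.24 in cisplatin and 1.08 ± 0.23 in control samples (log2, SE). Ctss had 1.73 ± 0.40 in control samples, and Ctsh 1.88 ± 0.40. Ctsz had the smallest of these differences in control samples but for Ctsa, 0.78 ± 0.32 (adjusted p = 0.0426), and its control groups overlapped. Without macrophage control replicate 4 the difference for Ctsz was 0.41 (adjusted p = 0.248), the lowest of 5 fits with 1 control library left out in which the call was lost. Its calls were also lost without combination macrophage replicate 1 (adjusted p = 0.0916), without cisplatin neutrophil replicate 3 (0.258) or cisplatin macrophage replicates 2 or 3 (0.0943 and 0.0503), and in 4 of the anti-CSF-1R fits.

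Ctsd and Ctsl depended on the treatment for their call between the cell types. Ctsd had 6962 ± 1153 reads in combination macrophages (SD, n = 2) and 6318 ± 1246 in combination neutrophils (SD, n = 4), a log2 fold change of 0.15 ± 0.34 (SE, adjusted p = 0.737). In anti-CSF-1R samples it was higher in macrophages by 1.06 ± 0.34 (adjusted p = 0.0139; 0.0837 without macrophage replicate 1 and 0.0621 without macrophage replicate 2). In cisplatin samples the value was -0.22 ± 0.30 (adjusted p = 0.549), and in control samples -0.49 ± 0.28 (adjusted p = 0.14), which became 0.53 under quantile normalisation and -0.69 (adjusted p = 0.0493) without macrophage control replicate 4. Ctsl was higher in macrophages by 3.56 ± 0.49 in combination samples (adjusted p = 2.19e-06) and by 2.58 ± 0.49 in anti-CSF-1R samples (adjusted p = 0.000151). In cisplatin samples the log2 fold change of Ctsl was 0.84 ± 0.43 (adjusted p = 0.0975) and in control samples 0.89 ± 0.40 (adjusted p = 0.0615), which passed in a fit of the 2 control groups alone (adjusted p = 0.0113), with median-ratio scaling, quantile normalisation or array weights, and without macrophage control replicate 1.

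**Figure D4:**
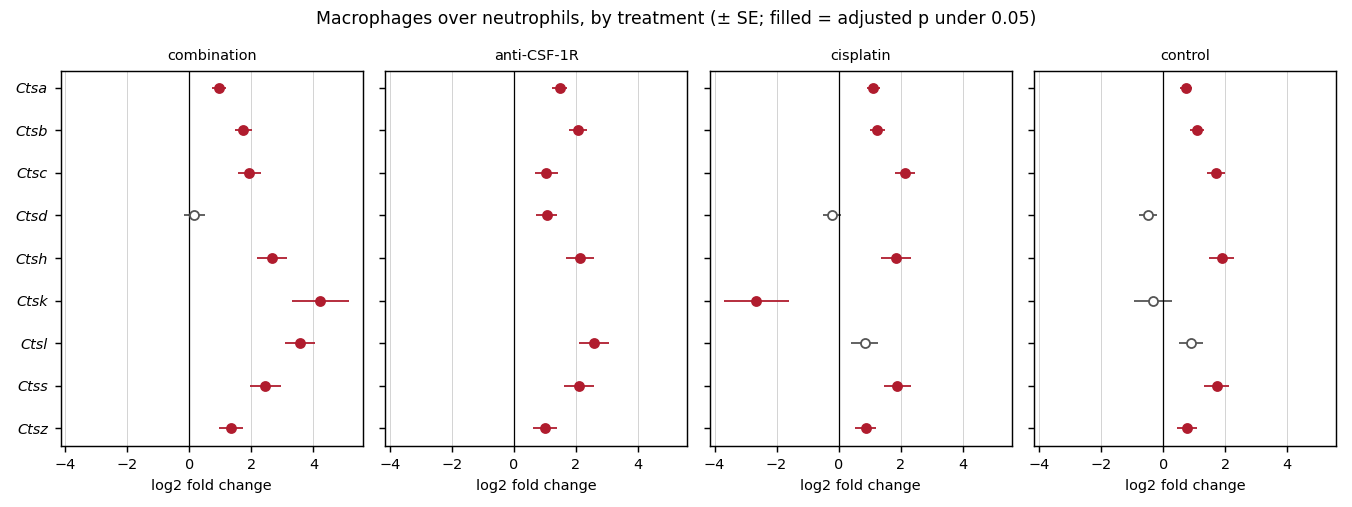
Log2 fold change of macrophages over neutrophils (x axis) with its SE for each cathepsin (y axis), in each of the 4 treatments; filled points passed an adjusted p of 0.05. Ctsa, Ctsb, Ctsc, Ctsh, Ctss and Ctsz are filled and positive in all 4, and Ctsk rests on 1 to 3 libraries a group and has no value in anti-CSF-1R neutrophils.

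Ctsk, the collagen-cleaving cathepsin best known from osteoclasts, gave few values. Those with only 1 possible place were 24.9 in 1 combination and 79.7, 148 and 264 in 3 control macrophage libraries, and, in neutrophils, a listing at 1 in 1 combination library, 202 in 1 cisplatin library, and 512 and 170 in 2 control libraries. A further 4 values had one place far more probable than the others, 53.2, 43.2 and 31.3 in 1 macrophage library each of the combination, anti-CSF-1R and cisplatin groups and 70.3 in 1 control neutrophil library. In 15 libraries the printed form allowed values 10 or 100 times apart and none was used. The calls of macrophages over neutrophils for Ctsk, 4.23 ± 0.92 in combination and -2.65 ± 1.06 in cisplatin samples (log2, SE), rested on a single neutrophil library each. The second also rested on a single macrophage library. The first was lost with a pseudocount of 10 (adjusted p = 0.0529) and with limma-voom (adjusted p = 0.187). With the most probable place for every value the cisplatin difference was -0.79 (adjusted p = 0.533). The cisplatin neutrophil library with the value of 202, replicate 3, had fibroblast markers summing to 823, against 7.79 and 63.6 in replicates 1 and 2. The part of such cells in this value was not tested. No direction is drawn for Ctsk.

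Members varied together to different degrees across the 12 macrophage libraries, which share the treatment differences above. Pearson's r of log2(value + 1) was 0.96 for Ctsb with Ctsd, 0.82 for Ctsb with Ctsl and 0.85 for Ctss with Ctsz, and within treatment groups 0.81, 0.48 and 0.89. Ctsc was negatively related to Ctsd, at -0.80 over all 12 libraries and -0.21 within groups. In neutrophils the closest pair was Ctsh with Ctss, at 0.89 over 14 libraries. Of 2321 genes with a mean of at least 100 and a value in all 12 macrophage libraries, the 3 most alike were Sdcbp, P2rx4 and Lamp1 for Ctsb (r from 0.94 to 0.96), Sdcbp, Cd53 and Cndp2 for Ctsd (0.92 to 0.94), and Casp4, Hif1a and Akirin1 for Ctsl (0.90 to 0.91). Npc2, B2m and Lrpap1 were the most alike to Ctss (0.96), Sdf4, Gngt2 and Fuca2 to Ctsz (0.95 to 0.96), Man2b1, Gaa and Rassf3 to Ctsa (0.85 to 0.93), and Agps, Smek1 and Mtdh to Ctsc (0.87 to 0.91). Lamp1 is a lysosomal membrane glycoprotein, Npc2 a lysosomal cholesterol carrier, and Man2b1 and Gaa are lysosomal glycosidases. These values are descriptions over libraries that also share depth and treatment.

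Other genes of the cathepsin pathway in macrophages are given by list. Of 9 tested inhibitors 1 rose in both anti-CSF-1R comparisons, against 1.64% and 1.69% of all genes passing upward. This was Cstb, the stefin that blocks cysteine cathepsins in the cytosol. It averaged 2182 ± 201 reads in anti-CSF-1R macrophages (SD, n = 2) and 920 ± 218 reads in control macrophages (SD, n = 4), a log2 fold change of 1.27 ± 0.26 (SE, adjusted p = 0.0188). In combination macrophages it averaged 2041 ± 481 reads (SD, n = 2) and in cisplatin macrophages 799.5 ± 155 (SD, n = 4), a log2 difference of 1.35 ± 0.26 with an adjusted p of 0.0135. No inhibitor passed without anti-CSF-1R replicate 2 or control replicate 1 in the first comparison, or without either combination library in the second. The median log2 fold change of the inhibitors was 1.08 in anti-CSF-1R over control, against 0.03 over all genes. Of 8 other lysosomal peptidases 1 passed in anti-CSF-1R over control, against 324 of 9084 genes in either direction, 149 of them upward. This was Ctsf, a further cysteine cathepsin. It had 1.32 reads in anti-CSF-1R and 14.4 reads in control macrophages, where 1 is the lowest value the table lists. Its call was lost when anti-CSF-1R replicate 2 was left out.

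Among 16 sorting genes, 1 rose in anti-CSF-1R over control and in combination over cisplatin, against 1.64% and 1.69% of all genes. This was Sort1, the sorting receptor sortilin. Its log2 fold changes were 2.94 ± 0.41 (SE, adjusted p = 0.00174) and 2.01 ± 0.41 (SE, adjusted p = 0.0163), in this order. Its levels were low, 66.8 ± 5.85 reads in anti-CSF-1R macrophages (SD, n = 2) and 7.91 ± 1.36 in control macrophages (SD, n = 4). No sorting gene passed in combination over cisplatin without combination replicate 2. Gga2, an adaptor of this transport, fell by 1.28 in cisplatin over control (adjusted p = 0.0316), where 0.424% of all genes passed in either direction. Of 18 genes of the proton pump, Atp6v1e1 and Atp6v1c1 rose in anti-CSF-1R over control, against 1.64% of all genes. Their log2 fold changes were 1.07 and 0.90. Atp6v0d2, Atp6v1c1, Atp6v1h and Atp6ap2 rose in combination over cisplatin, with 2.40, 1.02, 1.21 and 0.88, against 1.69% of all genes. Atp6v0d2 fell by 1.82 in cisplatin over control, where 0.424% of all genes passed in either direction. With 1 library left out, 0 to 2 pump genes passed in anti-CSF-1R over control and 0 to 4 in combination over cisplatin, the 0 in the second without either combination library. The pump's median was 0.48 in anti-CSF-1R over control and 0.44 in combination over cisplatin.

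Of 31 lysosomal membrane proteins and hydrolases tested in anti-CSF-1R over control 1 passed upward, against 1.64% of all genes. This was Gpnmb, a glycoprotein of phagocytic macrophages, at 391 ± 121 reads in anti-CSF-1R and 82.8 ± 4.65 reads in control macrophages (SD, n = 2 libraries with a value each), and the list's median was 0.39. In combination over cisplatin 1 of 30 passed upward, against 1.69% of all genes, again Gpnmb, on 1 library a group, and the median was -0.07. Tfec, a relative of TFEB, was the only 1 of 9 transcription factors and regulators to pass. It passed upward in combination over cisplatin, as did 1.69% of all genes. It had 93.8 ± 8.10 reads in combination macrophages (SD, n = 2) and 27.7 ± 13.4 in cisplatin macrophages (SD, n = 4). It was lost without either combination library or without cisplatin replicate 1 or 4. Without combination replicate 2 no gene of these lists passed in that comparison. None of 12 substrates and partners, invariant chain and MHC class II genes among them, passed in either comparison. None of these lists had a passing member in combination over anti-CSF-1R macrophages or in any comparison of neutrophil treatments.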

How the data were processed

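Libraries were prepared, per the labels' protocols, with NuGen kits (Ovation V2, Encore Rapid) using 10 ng RNA per sample, and read on an Illumina HiSeq. Named in the submitters' processing notes are build mm10, DESeq2, Partek 6.6, TopHat2 2.0.11, CASAVA 1.8 and R 3.3.1. Which of them did what, and whether counting used strand, is not stated in the sources used here. The deposited values are a signal: the table's own name calls them normalised, and their whole-read steps show counts that the authors divided by 1 factor for each library. The lowest value listed is 1. They hold 6 significant digits, and 90.956% of 269892 values had a form in which a decimal point may have been lost. To recover its place, each value had to be whole reads within the printing error, and where several places remained (67.1%), by a negative binomial model of the gene over the groups. Values with a probability under 0.95 (4.92%) were left out, which lowers n for single genes. The model can place a point by group, so decoding without the groups was also tried.

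The test was two-sided limma 3.58.1 (R 4.3.3; lmFit and trended eBayes) on log2(value + 1), for genes that reached 10 in 2 or more libraries of a cell type. One fit held the 4 groups of that cell type, and another all 8 groups, for differences between cell types. Where a group holds 1 value, it is assumed to vary like the others. Benjamini-Hochberg adjustment ran over all genes tested, with a threshold of 0.05, and 15 comparisons were made. The procedure was also run on libraries simulated from a negative binomial model, the kind used to place the points. Such a run cannot show how the decoding does where real values depart from that model. Read numbers limit the precision of low values. Replicates were numbered in sample order. Separate mice are nowhere stated, so a p-value here reflects the spread among these samples alone, which may be technical. Replicate libraries correlated at 0.926 to 0.972 and none repeated another.

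The members and lists were chosen with earlier results of these data known. All 9 members are named. Of other lists, up to 4 passing genes with the smallest p per comparison are named. For each of the 7 members with a value in every library, the 3 most alike genes over the macrophage libraries are named. Positions, overlaps and transcript lengths are from GENCODE vM21 (GRCm38, the same assembly as mm10), and promoter windows from RefSeq. Alternatives covered the pseudocount, filter, scaling, fit, decoding and each library left out. Tables were handled with pandas 2.3.3, numpy 2.4.6 and scipy 1.17.1 under Python 3.11.15, and drawn with matplotlib 3.10.9.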

Additional observations from a re-analysis of the deposited data

How the results depend on the processing

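No paired analysis was possible because the labels number no replicates. The 3 cathepsins passing in anti-CSF-1R over control macrophages became 1 with the 2 groups fitted alone, and 1 to 4 with a library left out: 1 without anti-CSF-1R replicate 1, without replicate 2 or without control replicate 1. The 1 passing in combination over cisplatin macrophages became 4 with the groups fitted alone and 6 with array weights. The 8 higher in anti-CSF-1R macrophages than neutrophils became 5 to 8 with a library left out, 5 without either macrophage library. For the difference between the cell types with cisplatin, 0 became 1 under quantile normalisation, with array weights, and without neutrophil combination replicate 1 (0 to 1 over the libraries left out). The counts of cathepsins in the other comparisons stayed within 1.5 times. Signs turned for values that had not passed: under quantile normalisation, Ctsa in anti-CSF-1R over control macrophages (-0.0626), Ctsb in combination over cisplatin macrophages (-0.0041) and Ctsd in control macrophages over neutrophils (0.53); for Ctsk in the last comparison, 0.0534 with limma-voom and -1.01 to 0.42 with a library left out, and in combination over cisplatin macrophages -0.32 to 0.74. Over all genes, 324 passing in anti-CSF-1R over control macrophages became 73 to 420 by setting and 37 to 586 by library left out, 331 in combination over cisplatin 130 to 1608 and 9 to 560, and 39 in cisplatin over control 2 to 119 and 15 to 161. Under the settings alone, 0 in combination over anti-CSF-1R became 0 to 99. In neutrophils 14 in anti-CSF-1R over control became 0 to 31, 8 in cisplatin over control 0 to 16, 8 in combination over cisplatin 0 to 28 and 4 in combination over anti-CSF-1R 0 to 11. Between the cell types 4574 in combination samples became 1814 to 5118, 4183 in anti-CSF-1R 1660 to 4243, 5622 in cisplatin 2065 to 5752 and 5086 in control 1932 to 5455. The interactions of 3, 19 and 6 genes became 0 to 75, 1 to 72 and 1 to 90. The causes were not tested. Macrophage groups of 2 libraries limit what these comparisons can show.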

Other observations

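Markers that stand near the cathepsins in biology or in the sort were also summed. Of the 5 osteoclast markers, cells in which Ctsk is best known, 3 were in the table (Ctsk itself is not among them). They summed to 498 to 691 reads in combination, 535 to 1134 in anti-CSF-1R, 255 to 289 in cisplatin and 398 to 1790 in control macrophages. In neutrophils the same sum was 68.8 to 175 in combination, 150 to 229 in anti-CSF-1R, 65.3 to 241 in cisplatin and 389 to 695 in control libraries. Endothelial markers, 2 in the table, summed to 99.5 to 165 reads in combination, 104 to 130 in anti-CSF-1R, 6.40 to 55.6 in cisplatin and 26.6 to 95.0 in control macrophages, and 5 fibroblast markers to 71.8 to 320, 17.9 to 34.3, 23.6 to 72.4 and 22.9 to 67.3 reads in the same order of groups. Dendritic cell, B cell and tumour epithelium markers, 4, 4 and 3 in the table, summed to at most 86.0, 15.8 and 30.6 reads in any macrophage library. The part of these cells in the cathepsin values was not tested.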
